A study of Mus musculus with 8 samples.

Results

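Genes of the ATF4 arm of the integrated stress response were followed in CDPs, the dendritic cell-restricted progenitors of BM, from obese and control mice. The list held 10 symbols (Atf4, Asns, Chac1, Trib3, Ddit3, Psat1, Phgdh, Shmt2, Mthfd2 and Sesn2), matched by Ensembl identifier to GENCODE vM21. Rows for 9 of them were found among the 16119 genes of the count table, and all 9 passed the filter on low counts. Counts of Trib3 were not analysed here.

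Male mice (C57BL/6 in the labels, C57BL/6J in the methods) received HFD (60 kcal% fat, labelled DIO) or CF (10 kcal% fat, labelled DIO-Control and matched for age and diet). The labels give 16 weeks of feeding for HFD, and in the paper 16 weeks is both the age at purchase and the longest feeding time, so the age at sampling is not certain. Both groups shared the strain and the sort, and no transgene or deletion is named for either. CDPs were sorted as Lin-, c-kit intermediate, Sca1 low, CD115+ and Flt3+ cells, and RNA of about 50000 cells was amplified and sequenced in 4 libraries per diet. Whether a library came from 1 mouse or from pooled mice was not given in the sources used here.

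The integrated stress response is a shared answer of cells to amino acid shortage, unfolded protein, heme loss and viral RNA. Kinases that sense these conditions phosphorylate eIF2, which slows translation in general but favours translation of the Atf4 mRNA. ATF4 is a bZIP transcription factor that then raises genes for amino acid supply, one-carbon metabolism and, under longer stress, growth arrest and cell death. Its activity is largely set at the level of protein, which RNA counts do not measure.

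ATF4 binds with C/EBP partners to composite elements of the form TGATGNAA. These letters were searched on both strands of the RefSeq promoter windows (250 bases before to 50 after each start site, GRCm38.p6). They were present in 3 of the 10 listed genes (11 windows), Asns, Chac1 and Trib3, against 3.97% of 32851 windows of the same length. The genes were listed for their tie to ATF4, and no excess was tested. The matches of the measured genes are shown 5′ to 3′ on the strand of the gene, because Asns and Chac1 were also the most variable members, with the matched letters in capitals. In Asns they began 23 bases before the RefSeq start site, within chr6:7693214-7693243 of the minus strand. In Chac1 they lay on the reverse strand, began 193 bases before the start site, and are shown within chr2:119350999-119351106.
Asns: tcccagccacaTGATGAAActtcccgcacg
Chac1: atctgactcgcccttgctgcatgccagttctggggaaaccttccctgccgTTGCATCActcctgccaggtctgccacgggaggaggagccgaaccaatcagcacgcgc
The stretch of Asns lies inside the gene as GENCODE draws it, since its most upstream transcript starts before that of RefSeq. A match to these letters is a description of the window and not a measured binding site. The other measured genes had no match in their windows.

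No member was called as different between the diets, which does not show that the levels were alike. At an adjusted p under 0.05 in edgeR's quasi-likelihood test, 0 of 9 members were called, against 67 of 15837 genes tested (0.423%). At that background 0 of 9 is no result about the members. The 95% intervals of Asns (-0.96 to 2.38) and Chac1 (-3.80 to 1.27) were wide. At an unadjusted p under 0.05, 0 of 9 members passed, against 8.56% of all genes. DESeq2 and limma voom also called 0 members, against 3.58% and 0.442% of all genes. A linear model for each gene called 0 genes at all, so its 0 says nothing of the members. Of the 9, 4 had a higher and 5 a lower fitted level in HFD, and their median log2 fold change (HFD against CF) was -0.02, beside 0.055 over all genes tested. The CPM of the diets overlapped for every member, while 6.16% of all genes had diets that did not overlap.

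**Figure D1:**
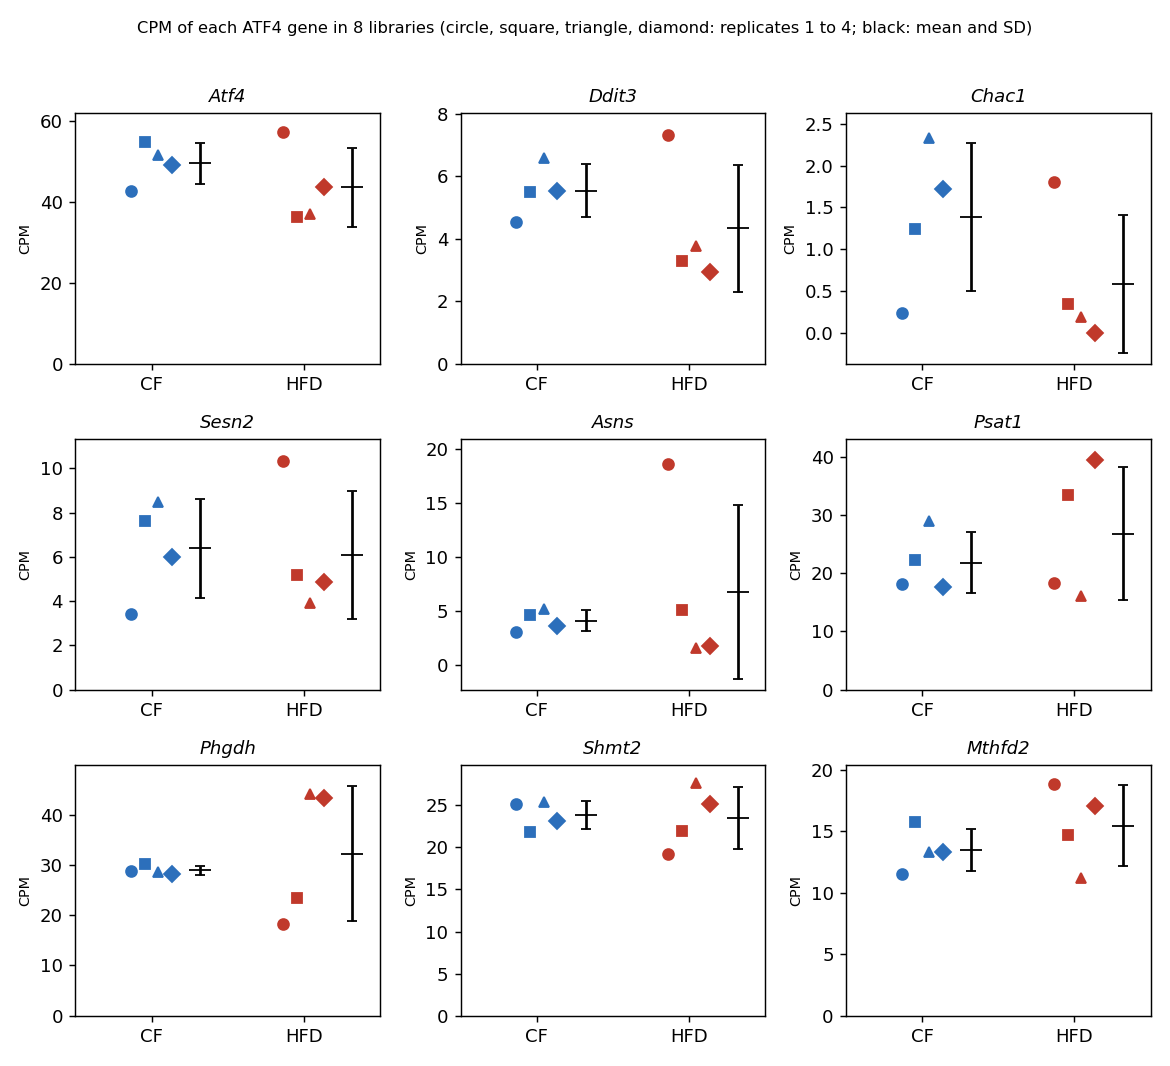
CPM (counts scaled to library size by TMM, vertical axis) of the 9 ATF4 genes in each library, with CF in blue and HFD in red, symbols for replicates 1 to 4, and the mean and SD of the 4 libraries in black. The red circle, HFD replicate 1, is the highest point for Atf4, Ddit3, Sesn2, Asns and Mthfd2 and the lowest for Phgdh and Shmt2.

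The libraries held 28203651 to 38969160 counts in HFD and 32575696 to 48409689 in CF, of which 38.9% to 41.9% and 28.3% to 42.0% fell in protein-coding genes. Non-coding genes of up to 200 nt took 8.50% to 13.6% in HFD and 21.7% to 33.9% in CF, without overlap. The 67 called genes all had lower levels in HFD, whereas library size alone called 10 higher and 98 lower and DESeq2 64 higher and 503 lower. A fit restricted to protein-coding genes called 0 (537 at an unadjusted p under 0.05). Markers of the CDP (Csf1r, Flt3, Kit, Irf8, Tcf4, Id2, Spi1 and Cd34) were detected in every library, with a summed level of 704 to 1395 CPM in HFD and 1065 to 1175 CPM in CF. The lowest sum was that of HFD replicate 1, where Flt3, a receptor used in the sort, was at 88.8 CPM, beside 235 to 378 CPM in the other HFD replicates and 228 to 316 CPM in CF. Markers of other BM cells were present too, and HFD replicate 1 held the most of them. The 12 neutrophil markers summed to 942 to 20240 CPM in HFD and 1916 to 6484 CPM in CF, and 12 of 12 were highest in that library, as were 8 of 8 erythroid markers (85.2 to 458 CPM against 79.3 to 125 CPM). The granulocyte progenitor sum was 214 to 1158 CPM in HFD and 325 to 715 CPM in CF, and the B cell sum 447 to 1249 CPM and 281 to 503 CPM. All neutrophil, erythroid and B cell markers (12, 8 and 7 genes) had a higher fitted level in HFD, as did 59.7% of all genes, and 0 of them were called (5 B cell genes had an unadjusted p under 0.05 in edgeR). Of the CDP markers 2 were higher and 6 lower, with Id2 lower at an unadjusted p under 0.05 in edgeR. The granulocyte progenitor markers were split 3 higher and 2 lower, and the tested T and NK cell markers 1 and 2. The neutrophil sum of HFD replicates 2 to 4 was 942 to 3576 CPM, so only HFD replicate 1 lay above CF. T and NK cell transcripts were scarce: 3 of 6 (Cd3e, Cd3g and Ncr1) were not tested, and the rest summed to 8.40 to 27.6 CPM in HFD and 11.1 to 19.9 CPM in CF. Because HFD replicate 1 held the most of the markers of other BM cells, values of the members are given with and without it. In bulk RNA, fewer cells of a type and less RNA per cell cannot be told apart.

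Atf4 itself encodes the factor that names the pathway. It lies on chr15:80255184-80257541 (plus strand, GRCm38). Its levels were 57.2, 36.2, 37.0 and 43.7 CPM in HFD replicates 1 to 4 and 42.7, 54.7, 51.5 and 49.1 CPM in CF. HFD replicate 1 was the highest of the 8 libraries, HFD replicates 2 and 3 lay below every CF library, and HFD replicate 4 lay just inside the CF range. The log2 fold change (HFD against CF) was -0.19 (SE 0.16, 95% interval -0.55 to 0.18; edgeR adjusted p = 0.847). Without HFD replicate 1 it was -0.34 (interval -0.61 to -0.076; edgeR adjusted p = 0.22), and with scaling by library size alone it was -0.0073.

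Ddit3 encodes CHOP, a bZIP factor induced by ATF4 that promotes cell death under lasting stress, and lies on chr10:127290774-127296288. It had 7.32, 3.27, 3.78 and 2.94 CPM in HFD replicates 1 to 4 and 4.52, 5.50, 6.58 and 5.54 CPM in CF. HFD replicate 1 lay above every CF library and the other HFD replicates below every CF library. The log2 fold change over all libraries was -0.36 (SE 0.30, interval -1.03 to 0.32; edgeR adjusted p = 0.841). With scaling by library size alone it was -0.19. Leaving out HFD replicate 1 gave -0.73 (interval -1.17 to -0.29; edgeR adjusted p = 0.123). Ddit3 was then the one member whose diets did not overlap, and 6.64% of all genes were likewise lower and apart in that comparison.

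Chac1 encodes an enzyme that degrades glutathione and is a target of ATF4 and CHOP. It lies on chr2:119351229-119354381. Its counts were 56, 11, 7 and 0 in HFD replicates 1 to 4 and 9, 39, 74 and 66 in CF, the fewest of any member. The levels were 1.80, 0.346, 0.184 and 0 CPM in HFD and 0.233, 1.24, 2.33 and 1.71 CPM in CF. The count of 0 in HFD replicate 4 allows up to 0.0728 CPM. CF replicate 1 fell among the low HFD libraries and HFD replicate 1 among the high CF libraries. The log2 fold change was -1.27 with a wide interval (SE 1.11, -3.80 to 1.27; edgeR adjusted p = 0.85), and without HFD replicate 1 it was -2.99 (interval -5.29 to -0.70; edgeR adjusted p = 0.213).

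Sesn2 encodes sestrin 2, a leucine-binding inhibitor of mTORC1 raised by ATF4, and lies on chr4:132492032-132510501. It had 10.3, 5.19, 3.91 and 4.88 CPM in HFD replicates 1 to 4 and 3.41, 7.63, 8.50 and 5.98 CPM in CF. Again HFD replicate 1 was the highest library, and CF replicate 1 was the lowest. Between diets the log2 fold change was -0.07 (SE 0.37, interval -0.90 to 0.76; edgeR adjusted p = 0.984), and scaling by library size alone turned its direction (0.092). Leaving out HFD replicate 1 gave -0.45 (edgeR adjusted p = 0.519).

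Asns encodes asparagine synthetase, which makes asparagine from aspartate and glutamine, and lies on chr6:7675169-7693254. Its CPM in HFD replicates 1 to 4 was 18.6, 5.13, 1.60 and 1.82, and in CF 3.08, 4.64, 5.16 and 3.67. HFD replicate 1 lay above the CF range, replicate 2 inside it and replicates 3 and 4 below it, and replicate 1 was 6.53 times the mean of the other HFD replicates. The log2 fold change of 0.71 (SE 0.73, interval -0.96 to 2.38; edgeR adjusted p = 0.882) became -0.54 without that library (interval -1.48 to 0.40; adjusted p = 0.581).

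Phgdh encodes the dehydrogenase that opens serine synthesis and lies on chr3:98313170-98339990. It had 18.2, 23.4, 44.2 and 43.3 CPM in HFD replicates 1 to 4 and 28.9, 30.3, 28.6 and 28.2 CPM in CF. The CF libraries were nearly alike (SD 0.902 CPM), while the HFD libraries fell into a pair below and a pair above them (SD 13.4 CPM). The fitted log2 fold change was 0.16 (SE 0.27, interval -0.46 to 0.78; edgeR adjusted p = 0.943). Without HFD replicate 3 or 4 it was -0.03 or -0.06, and without HFD replicate 1 it was 0.35 (edgeR adjusted p = 0.454). Scaling by library size alone gave 0.36.

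Reads of Phgdh can match copies elsewhere in the genome. In GENCODE vM21, 24 other genes held a stretch of at least 75 nt with at least 90% identity, and 20 of them were pseudogenes. Only Gm7901 and Gm9347 had a row in the count table, at 3.38 ± 1.24 and 1.04 ± 0.544 CPM (SD, n = 4) in HFD and 2.84 ± 0.144 and 0.754 ± 0.0785 CPM in CF. Both were lowest in HFD replicate 1, as was Phgdh, and the part that shared reads play was not tested.

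Psat1 encodes the aminotransferase of the next step of serine synthesis and lies on chr19:15904678-15947337. It had 18.2, 33.3, 16.0 and 39.4 CPM in HFD replicates 1 to 4 and 18.1, 22.2, 29.0 and 17.7 CPM in CF. HFD replicates 2 and 4 lay above all CF libraries and replicate 3 below them. This gave a log2 fold change of 0.30 (SE 0.31, interval -0.40 to 1.00; edgeR adjusted p = 0.882), which was 0.45 without HFD replicate 1 (adjusted p = 0.532), 0.18 without HFD replicate 2 and 0.011 without HFD replicate 4. Scaling by library size alone gave 0.51.

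Shmt2, the mitochondrial hydroxymethyltransferase that splits serine into glycine and a one-carbon unit, lies on chr10:127517123-127522444. It was the steadiest member, with 19.2, 22.0, 27.7 and 25.1 CPM in HFD replicates 1 to 4 and 25.1, 21.9, 25.4 and 23.2 CPM in CF. Its log2 fold change was -0.02 (SE 0.13, interval -0.32 to 0.27; edgeR adjusted p = 0.985), the narrowest interval of the 9 members. Its sign turned under scaling by library size alone (0.18) and without HFD replicate 1 (0.062).

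Mthfd2, the mitochondrial folate enzyme that acts on the one-carbon unit next, lies on chr6:83305691-83325908. It had 18.8, 14.7, 11.2 and 17.1 CPM in HFD replicates 1 to 4 and 11.5, 15.7, 13.3 and 13.3 CPM in CF. Its log2 fold change was 0.20 (SE 0.18, interval -0.20 to 0.60; edgeR adjusted p = 0.853), and it ran from 0.090 without HFD replicate 1 to 0.33 without HFD replicate 3 (adjusted p = 0.84 and 0.598). Scaling by library size alone gave 0.38.

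**Figure D2:**
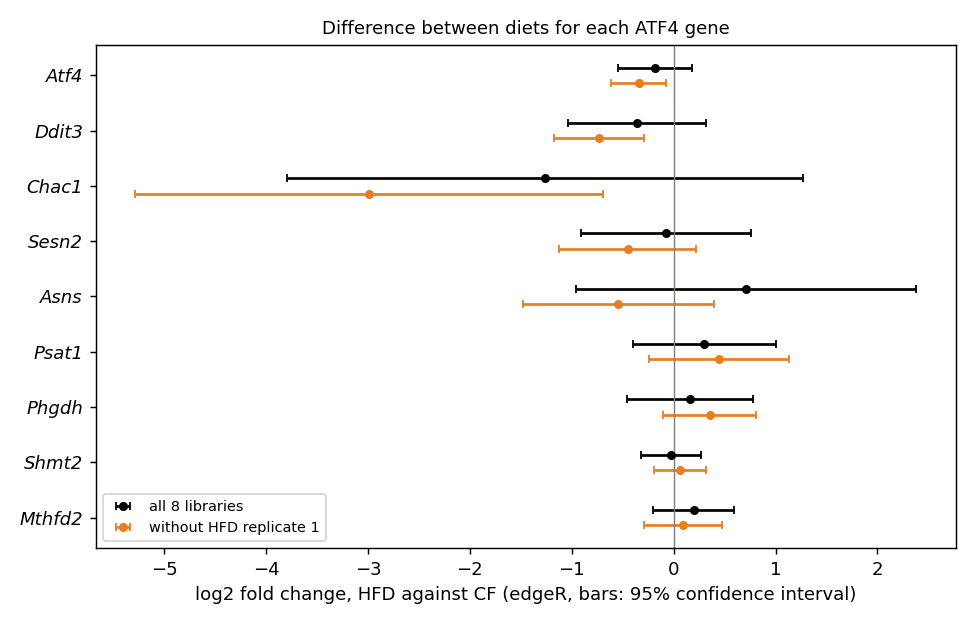
Log2 fold change of HFD against CF for each ATF4 gene from edgeR (horizontal axis, bars are 95% confidence intervals), from all 8 libraries (black) and without HFD replicate 1 (orange). All black intervals cross 0, and the orange intervals of Atf4 (-0.61 to -0.076), Ddit3 (-1.17 to -0.29) and Chac1 (-5.29 to -0.70) lie below it.

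Each member was also tested alone on log2 CPM with an exact two-sided permutation test over the 70 ways to draw 4 of 8 libraries, whose smallest p is 0.0286. The exact p values ran from 0.2 for Ddit3 and 0.257 for Chac1 to 1 for Asns. Atf4 had an exact p of 0.286.

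Without HFD replicate 1, 3 of 9 members (Atf4, Chac1 and Ddit3) passed an unadjusted p under 0.05 in edgeR, all lower in HFD, and 0 were called. In the same comparison of 3 against 4 libraries, 14.6% of all genes passed the unadjusted p, 9.76% as lower in HFD, and 1.26% were called. The median log2 fold change of the members was then -0.34, beside 0.029 over all genes. Leaving out CF replicate 1 as well raised the members at an unadjusted p under 0.05 to 4, beside 15.1% of all genes, again with 0 called. That comparison had 3 libraries per diet. HFD replicates 2 to 4 also held less of the neutrophil markers than CF replicates 2 to 4 (mean log2 CPM 5.16 to 6.99 against 7.79 to 7.87), with CF replicate 1 at 6.26. With that marker level as a covariate in all 8 libraries, the log2 fold change was -0.13 for Atf4 (edgeR adjusted p = 0.715), -0.28 for Ddit3 (adjusted p = 0.555) and -1.52 for Chac1 (adjusted p = 0.268), and 1 of 9 members passed an unadjusted p under 0.05, beside 13.7% of all genes.

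Members differed in how far libraries of 1 diet spread. The biological coefficient of variation estimated by edgeR was 1.08 for Chac1 and 0.695 for Asns, at percentiles 99.1 and 95.2 of all genes tested. It was 0.176 for Shmt2, at percentile 16.5, and 0.194 for Atf4. In 5 of 9 members the highest of the 8 values was in HFD replicate 1, against 26.5% of all genes. That library stood at 10.2 times the mean of the other HFD replicates for Chac1, 2.22 times for Sesn2, 2.20 times for Ddit3 and 1.47 times for Atf4. For Phgdh it stood at 0.493 times and for Psat1 at 0.616 times that mean. CF replicate 1 was the lowest CF library for 6 of 9 members (Atf4, Ddit3, Chac1, Sesn2, Asns and Mthfd2), beside 27.8% of all genes.

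The order of the libraries for these genes was set against the mean log2 CPM of the 12 neutrophil markers, which was 9.65, 6.99, 5.61 and 5.16 in HFD replicates 1 to 4 and 6.26, 7.87, 7.83 and 7.79 in CF. Asns was higher in libraries with more of it (Pearson r = 0.935, exact permutation p = 0.00124, adjusted over all genes 0.0271; Spearman rho = 0.857, exact p = 0.0107, adjusted 0.129). The other 8 members did not pass the adjustment over all genes, and by Spearman's rho no member did. Chac1, Ddit3, Sesn2 and Atf4 lay on the same side as Asns. An unadjusted exact p under 0.05 for r was found in 7 of 9 members and in 25.5% of all genes. For Chac1 r was 0.886 (exact permutation p = 0.00407, adjusted 0.0505) and rho 0.881 (exact p = 0.00724). Ddit3 had r = 0.869 (exact permutation p = 0.00543, adjusted 0.0588) and rho = 0.857 (exact p = 0.0107). For Sesn2 these were 0.86 (exact permutation p = 0.00692, adjusted 0.0676) and 0.881 (exact p = 0.00724), and for Atf4 0.76 (exact permutation p = 0.0306, adjusted 0.148) and 0.786 (exact p = 0.0279).

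Phgdh and Shmt2 ran the other way, with r = -0.861 (exact permutation p = 0.00655, adjusted 0.0654) and -0.81 (exact p = 0.0159, adjusted 0.104). Their rank correlations were weaker, with rho = -0.643 (exact permutation p = 0.0962) and -0.69 (exact p = 0.0694). Psat1 had r = -0.286 (exact permutation p = 0.491) and rho = -0.0476 (exact p = 0.935), and Mthfd2 r = 0.469 (exact permutation p = 0.241) and rho = 0.429 (exact p = 0.299). Without HFD replicates 1 and 4, the libraries farthest from the median marker level, r was 0.832 for Asns, 0.932 for Chac1, 0.703 for Ddit3, 0.897 for Sesn2 and 0.804 for Atf4. It was -0.592 for Phgdh, -0.668 for Shmt2, 0.459 for Psat1 and 0.784 for Mthfd2 in those 6 libraries. The signs were thus kept except for Psat1. With each diet centred on its own mean, r was 0.96 for Asns, 0.926 for Chac1 and -0.869 for Phgdh. Over all 15837 genes, 10.1% had r above 0.8 and 5.53% below -0.8, and 1266 passed the adjustment by r and 371 by rho. The part that other cells play in the levels of these genes was not tested.

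**Figure D3:**
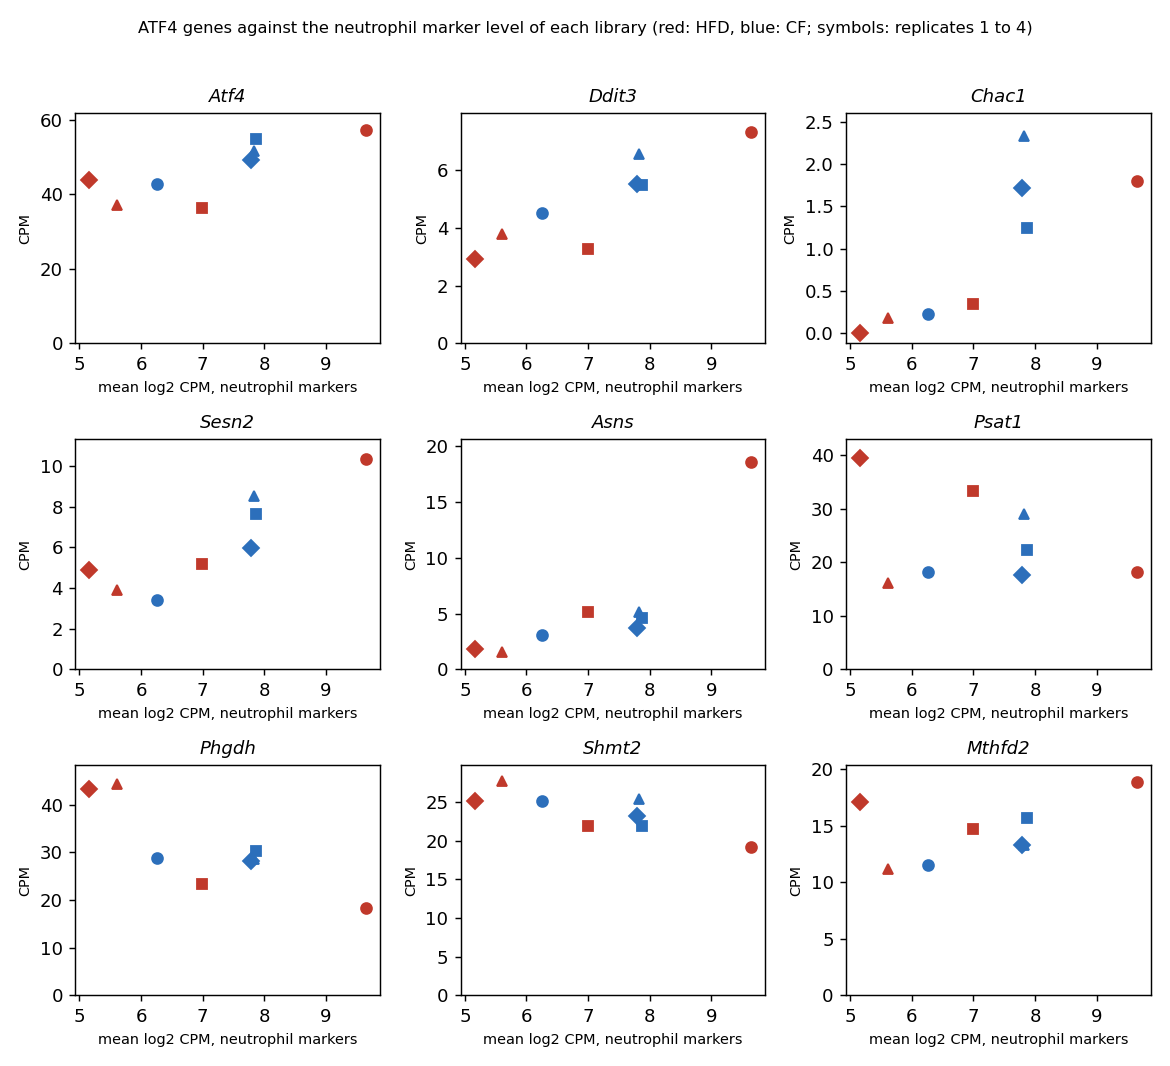
CPM of each ATF4 gene (vertical axis) against the mean log2 CPM of 12 neutrophil markers (horizontal axis) in the 8 libraries, HFD in red and CF in blue, symbols for replicates 1 to 4. Asns (r = 0.935), Chac1 (0.886), Ddit3 (0.869) and Sesn2 (0.86) are high in libraries to the right, and Phgdh (-0.861) is low there; r was computed on log2 CPM.

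Among themselves, the members gave 36 pairs with Pearson r from -0.939 (Asns and Phgdh) to 0.906 (Chac1 and Ddit3) on log2 CPM over the 8 libraries. The r of 20 pairs was above 0, and that of Phgdh with Shmt2 was 0.848. These values are descriptions, since all pairs share the same libraries and their marker levels. Of 6659 protein-coding genes with over 10 CPM, Prr14 (r = 0.965), Txnip (0.961) and Gabarap (0.958) had the pattern most like Atf4.

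Per exon length, Atf4 was the highest member in CF, at 21.0 ± 2.17 RPKM (SD, n = 4) and at percentile 94.7 of protein-coding genes. Below it came Phgdh at 11.7 ± 0.363, Shmt2 at 7.68 ± 0.535 and Psat1 at 5.11 ± 1.23 RPKM, then Mthfd2 at 3.86 ± 0.490 and Ddit3 at 3.23 ± 0.491 RPKM. Sesn2 at 1.84 ± 0.645, Asns at 1.51 ± 0.345 and Chac1 at 0.843 ± 0.541 RPKM closed the order, and Chac1 stood at percentile 19.4. The CF libraries of neighbours in this order overlapped for Psat1 and Mthfd2, Mthfd2 and Ddit3, Sesn2 and Asns, and Asns and Chac1. In HFD the mean levels were 18.5 ± 4.12 RPKM for Atf4 and 13.0 ± 5.40 RPKM for Phgdh.

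Counting by strand was not stated in the sources used here, so exons shared with a gene on the other strand are uncertain. Ddit3 shares 68 nt of exon with Mars, a tRNA synthetase gene, and Shmt2 shares 32 nt with Ndufa4l2.

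Genes that lead to, work with or follow ATF4 were read from lists by role. The eIF2 control list held 18 genes: the eIF2 kinases, eIF2, eIF2B, the regulatory subunits of the eIF2 phosphatase, and the kinase regulators Gcn1l1, Impact, Oma1 and Dele1. Of these, 11 had a higher and 7 a lower fitted level in HFD, beside 59.7% higher among all genes tested, and 0 were called. Their median log2 fold change was 0.086, against 0.055 over all genes, and without HFD replicate 1 it was 0.023 (9 higher and 9 lower), against 0.029. Eif2s3x, the gamma subunit of eIF2, had 54.2 to 63.4 CPM in HFD and 46.4 to 53.9 CPM in CF (log2 fold change 0.21, edgeR adjusted p = 0.599). It was the 1 gene of the 18 whose diets did not overlap, beside 6.16% of all genes. Eif2b3, a subunit of the exchange factor eIF2B, had 5.98 ± 0.486 CPM in HFD and 4.71 ± 0.893 CPM in CF (SD, n = 4; log2 fold change 0.34, edgeR adjusted p = 0.669).

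The list of 7 bZIP partners, which also held Nupr1, not itself a bZIP factor, was split 4 higher and 3 lower with 0 called. Atf3, a repressor and activator induced by stress, had 2.98, 0.944, 0.603 and 0 CPM in HFD replicates 1 to 4 and 2.77, 4.42, 6.05 and 3.95 CPM in CF. Its order over the HFD libraries was that of Chac1, with a log2 fold change of -1.94 (SE 0.93; edgeR adjusted p = 0.655). Without HFD replicate 1, 6 of the 7 listed genes had a lower fitted level in HFD (45.8% of all genes did), and Atf3 was at -3.09 (edgeR adjusted p = 0.135). Their median of -0.51 was the value of Nupr1 (edgeR adjusted p = 0.771). Over all libraries Nupr1 had a mean of only 0.945 CPM in HFD and 0.890 CPM in CF. Nfe2l2, the oxidative stress factor NRF2, had 42.8 ± 18.4 CPM in HFD and 36.5 ± 5.94 CPM in CF (SD, n = 4). HFD replicate 1 was at 70.1 CPM, beside 31.2 to 36.6 CPM in the other HFD replicates and 30.3 to 44.0 CPM in CF. Its log2 fold change of 0.23 turned to -0.12 without HFD replicate 1.

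Of 20 aminoacyl-tRNA synthetase genes, which charge tRNAs and include many ATF4 targets, 18 had a higher fitted level in HFD (59.7% of all genes did) and 0 were called, with a median log2 fold change of 0.086. At an unadjusted p under 0.05, 3 were higher, beside 3.22% of all genes. Without HFD replicate 1, 2 were higher at that level, beside 760 of 15863 genes. Rars, the arginine enzyme, had 24.7 to 27.0 CPM in HFD and 20.2 to 22.5 CPM in CF (log2 fold change 0.26, SE 0.089, edgeR adjusted p = 0.343). Dars, the aspartate enzyme, had 51.8 to 64.7 CPM in HFD and 42.7 to 49.6 CPM in CF (log2 fold change 0.27, SE 0.10, edgeR adjusted p = 0.455). Both were named for their low p, and neither passed the adjustment. The diets did not overlap for 3 of the 20 synthetases, Rars and Dars among them, beside 6.16% of all genes. The third gene at an unadjusted p under 0.05 was Hars, for histidine, at 0.32 (edgeR adjusted p = 0.533). Without HFD replicate 1, Rars still passed the unadjusted p, and Dars and Hars did not.

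The remaining lists also had 0 genes called, and their counts of genes with a higher fitted level stand beside the 59.7% of all genes. In serine, glycine and folate metabolism, 13 of 16 genes were tested and 8 were higher, with a median of 0.085. Slc25a32, the mitochondrial folate carrier, was at 0.28 (edgeR adjusted p = 0.731) and Sfxn1, the mitochondrial serine carrier, at 0.16 (adjusted p = 0.741). Of 8 amino acid transporters tested, 6 were higher, with a median of 0.090, and without HFD replicate 1, 5 were higher, with a median of 0.038. Among the lower ones, Slc7a11 went from -0.17 to -1.30 without that library (edgeR adjusted p = 0.108). Slc6a9, a glycine transporter, had 9.05 CPM in HFD replicate 1 and 0.752 to 1.32 CPM in the other HFD replicates, beside 0.543 to 1.45 CPM in CF. Slc7a5, which carries large neutral amino acids, was at 0.16 (edgeR adjusted p = 0.817), and at 0.0645 without HFD replicate 1.

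Of 5 other amino acid enzymes tested, 3 were higher. Bcat1, which starts the breakdown of branched-chain amino acids, was at 0.94 (edgeR adjusted p = 0.746) and Aldh18a1, of proline synthesis, at 0.19 (adjusted p = 0.772). Of 7 stress and growth arrest targets tested, 5 were higher, with a median of 0.26, but without HFD replicate 1 the split was 2 higher and 5 lower, with a median of -0.073. Herpud1, of the ER degradation machinery, was at 0.29 (edgeR adjusted p = 0.685).

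Gadd45a, a growth arrest gene, had 19.4, 4.03, 3.41 and 2.38 CPM in HFD replicates 1 to 4 and 7.34, 11.7, 10.8 and 12.3 CPM in CF. Like Ddit3, it lay above all CF libraries in HFD replicate 1 and below them in the other HFD replicates. Its log2 fold change was -0.53 with all libraries (edgeR adjusted p = 0.906) and fell to -1.69 without HFD replicate 1 (edgeR adjusted p = 0.0217). In that comparison 1 of the 92 genes of all these lists was called, beside 1.26% of all genes, so the lists' share was near the background.

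Of 5 paralogs of the members, 2 were higher, with a median of -0.061, and without HFD replicate 1, 3 were higher, with a median of 0.033. The median does not show Trib1, which went from -0.25 to -1.87 without that library (edgeR adjusted p = 0.0649). Trib2, a relative of Trib3, had 3.37 CPM in HFD replicate 1 and 0.218 to 0.850 CPM in the other HFD replicates, beside 0.104 to 0.827 CPM in CF. Chac2, the relative of Chac1, had 4.94 CPM in HFD replicate 1, 0.946 to 1.89 CPM in the other HFD replicates and 1.40 to 1.87 CPM in CF. As for Chac1, the largest value lay in HFD replicate 1 among the HFD libraries.

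**Figure D4:**
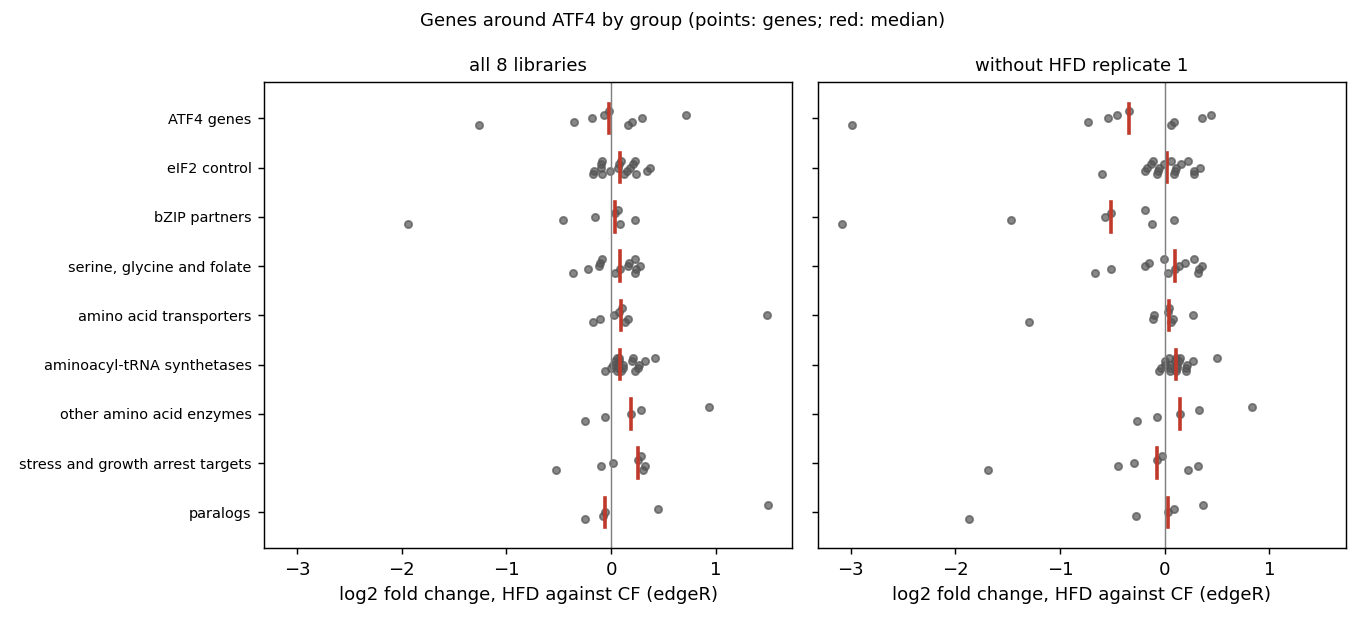
Log2 fold change of HFD against CF (horizontal axis, edgeR) for every tested gene of each list, with the list's median in red, from all 8 libraries (left) and without HFD replicate 1 (right). The median of the ATF4 genes is at -0.02 on the left and -0.34 on the right. That of the bZIP partner list (Nupr1 included) is at 0.039 and -0.51, while the tRNA synthetases stay at 0.086 and 0.11.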

How the data were processed

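Reads were aligned with HISAT2 and counted with StringTie on GENCODE genes, and the authors deposited raw counts per gene; the submitters' notes also name FastQC, cutadapt and GRCm38. The GENCODE release, tool versions and strand setting are not given in the sources used here. Columns were matched to samples by sample number. Names, positions and exon lengths came from GENCODE vM21 (16067 of 16119 genes matched), and copies were found with blastn 2.17.0.

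HFD was compared with CF in edgeR 4.0.16 (R 4.3.3) by a robust quasi-likelihood fit on TMM-scaled counts after filterByExpr, without covariates. All 15837 genes that passed entered the Benjamini-Hochberg adjustment, and a gene was called under 0.05. Log2 CPM used a prior count of 2. The study tested differences with Ballgown, whereas the deposited counts were given a count test here. p-values measure the spread between these 4 samples per diet. Depth limits low genes: 3 counts correspond to 0.0728 to 0.0963 CPM, and this floor covers counting error only.

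The members and lists were chosen with earlier results of these data known. Genes named are all members, the 2 genes with the lowest p of each other list, and the 3 genes most like Atf4 over the libraries. Hars, Nupr1, Trib1 and Slc7a11 were named after their values were seen. Alternatives were RLE factors, library size alone, DESeq2 1.42.0, limma 3.58.1 voom, a linear model on log2(CPM + 1), other filters, protein-coding genes alone, the replicate number as a block and libraries left out. A neutrophil score as covariate was added after seeing the data. Plots used matplotlib 3.10.9 in Python 3.11.15.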

Additional observations from a re-analysis of the deposited data

Results flagged for a closer look

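Of 52 sets of 4 libraries looked at for members, named genes and the neutrophil marker level, 3 held a library far from the other 3, and chance gives about 1 in 20. Eif2b3 was at 2.76 log2 CPM in HFD replicate 1, against 2.52 to 2.56 in the other HFD replicates. Herpud1 was at 5.71 log2 CPM in HFD replicate 4, against 5.34 to 5.35. The mean log2 CPM of the neutrophil markers was 6.26 in CF replicate 1, against 7.79 to 7.87 in the other CF replicates. The same rule did not flag HFD replicate 1 for that marker level (9.65, against 5.16 to 6.99 in the other HFD replicates). No member itself had a library this far from the rest.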

How the results depend on the processing

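The count of members called was 0 under all 19 alternatives, but several of these called no gene at all. That was so with the linear model, protein-coding genes alone and the replicate block. It was also so without HFD replicate 3 or CF replicate 1, 2 or 3, so the members' 0 says nothing in these fits. It says little without HFD replicate 2 or 4, where 1 and 2 genes were called. The lowest adjusted p of a member was 0.0779 (Chac1, with HFD and CF replicate 1 both left out). Of 171 recomputed log2 fold changes of members, 153 kept their sign. With library size alone Atf4 moved from -0.19 to -0.0073 and Ddit3 from -0.36 to -0.19. Without HFD replicates 2 and 3 in turn Atf4 was at -0.11 and -0.12, and with both replicates 1 left out at -0.41. Chac1 moved from -1.27 to -3.355 with both replicates 1 left out, -2.57 with voom, -2.27 with the replicate block and -0.62 with the linear model. Other moves were Psat1 from 0.30 to 0.011 without HFD replicate 4, and Mthfd2 from 0.20 to 0.38 with library size alone and 0.022 with both replicates 1 left out. Asns turned to -0.063 with voom, -0.060 with the replicate block, -0.66 with both replicates 1 left out and -0.54 without HFD replicate 1 (lowest and highest with 1 library left out, -0.54 and 1.04). Phgdh was 0.36 with library size alone, -0.095 with the neutrophil score as covariate, and -0.056 to 0.35 with 1 library left out (-0.056 without HFD replicate 4, -0.032 without HFD replicate 3). Sesn2 turned to 0.092 with library size alone and 0.078 with the neutrophil score, and with 1 library left out it ran from -0.45 to 0.099, with 0.099 without CF replicate 3, 0.091 without HFD replicate 3 and 0.027 without CF replicate 2. Shmt2 turned to 0.18 with library size alone and 0.086 with both replicates 1 left out, and ran from -0.11 to 0.062 with 1 library left out, with 0.062, 0.0078, 0.0020 and 0.0073 without HFD replicate 1, HFD replicate 2, CF replicate 1 and CF replicate 3. Library size alone moved the median of all genes from 0.055 to 0.25. The count of genes called, 67, became 108 with library size alone, 567 with DESeq2, 388 with both replicates 1 left out, 649 with the neutrophil score, and 0 with the linear model (1457 at an unadjusted p under 0.05), with protein-coding genes alone (537) and with the replicate block (911). With 1 library left out it ran from 0 to 200: 200 without HFD replicate 1, 154 without CF replicate 4, 2 without HFD replicate 4, 1 without HFD replicate 2, and 0 without HFD replicate 3 or CF replicate 1, 2 or 3. Higher calls were 10 of the 108, 64 of the 567, 38 of the 388, 90 of the 649 and 34 of the 200. The cause was not tested. Replicate numbers are not described as pairing samples, and deviations of same-numbered libraries correlated at -0.439 to -0.0779. Chac1, at 0 to 74 counts, is the member most limited by depth.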
